A study of Mus musculus with 6 samples.

Results

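The receptor complex that senses lipopolysaccharide (LPS), made up of TLR4 and its partners, and the adaptors that carry its signal were examined in the livers of L1-Tg and WT mice. The set was chosen by function, with earlier results of these data known. It holds 10 genes of the 37074 represented on the array, namely Lbp, Cd14, Ly96, Tlr4, Myd88, Irak4, Traf6, Ticam2, Ticam1 and Traf3. These genes were found by the RefSeq names of their probes, which gave 11 probes, 2 of them for Irak4 and 1 for each other gene. Of the 10 genes, 9 were well above background on all 6 arrays and were among the 22346 genes tested, whereas Ticam2 was well above background on no array.

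The transgenic line used, B6;D2-Tg(APOE-NPC1L1)20Lqyu/J and here called L1-Tg, is a single one that expresses human NPC1L1, a cholesterol transporter, in hepatocytes under the APOE promoter. They were hemizygous and had been backcrossed to C57BL/6J for at least 8 generations, and WT littermates without the transgene served as controls. All mice were males of 6 to 12 weeks fed a control-fat diet (CFD), and the labels name no agent given to either group. Each group had 3 arrays, and every array held Cy3-labeled liver RNA pooled from 2 or 3 mice, so n counts pools and single mice are not resolved.

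The 6 arrays lay on 1 slide with WT pools in row 1 and L1-Tg pools in row 2, so that slide row and genotype cannot be told apart. Between 53.1% and 59.2% of the probe spots of an array were well above background, with the lowest share in WT replicate 1. The median local background was 38 to 41 on the L1-Tg arrays and 45.5 to 51 on the WT arrays, without overlap. Its part in the differences of dim probes was not tested. Across genes, Pearson's r was 0.985 to 0.994 between arrays of a group and 0.979 to 0.992 between groups. The mouse Npc1l1 probe, which is not known to read the human transgene, was well above background in 1 of 3 L1-Tg and 2 of 3 WT pools and therefore did not check the labels. One library stood apart in a list of 8 pancreas genes, whose summed signal in L1-Tg replicate 2 was 1738% of the WT mean, against 94.3% to 133% on the other arrays. Ctrb1 made up 37.7% to 79.5% of these sums. The log2 signal of Cela2a, another gene of the list, was 0.25 in L1-Tg replicate 3 and -2.19 in replicate 1. It was -3.92 to -2.97 in the WT pools. Ctrb1 stood at 0.98 in L1-Tg replicate 3 against 1.00 to 1.13 in the WT pools. Values without L1-Tg replicate 2 are given for each tested member and for the lists whose median it moved by over 1.5 times.

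LPS, a cell-wall component of Gram-negative bacteria, is taken up in plasma by LPS-binding protein (LBP), a product of hepatocytes, and passed to CD14. CD14 hands it to MD-2, the product of Ly96, which is bound to the outer part of TLR4 and makes the receptor pair up. At the plasma membrane TLR4 signals through the adaptors TIRAP and MyD88 to the kinase IRAK4 and the ubiquitin ligase TRAF6, a route that leads to NF-κB and inflammatory cytokines. After uptake into endosomes it signals through TRAM, the product of Ticam2, and TRIF, the product of Ticam1, to TRAF3, a route that leads to type I interferon. In the liver the Kupffer cells, its resident macrophages, are known for their TLR4 response to LPS arriving from the gut.

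No member of the complex or its adaptors passed the adjusted threshold of 0.05 in limma, and the smallest adjusted p was 0.300. Of all genes tested 0.13% passed. At an unadjusted p under 0.05 there were 3 of the 9 tested members, Traf3, Irak4 and Ly96, all higher in L1-Tg livers, against 8.88% of all genes in either direction and 4.5% in this one. Without moderated variances, 0 members passed after adjustment and the same number, 3, had an unadjusted p under 0.05. Of the 9 members 7 had a higher mean in L1-Tg livers and 2 a lower one, with a median log2 difference of 0.23. Leaving out L1-Tg replicate 2 gave a median of 0.44. Over all genes tested the median was -0.03 and 42.8% were higher. Signals are given here as log2 of the processed signal after subtraction of the 75th percentile of the array, so that a value of 0 lies at that percentile and a difference of 1 is a doubling. Probes differ in their response, so levels are compared between pools and not between genes.

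**Figure D1:**
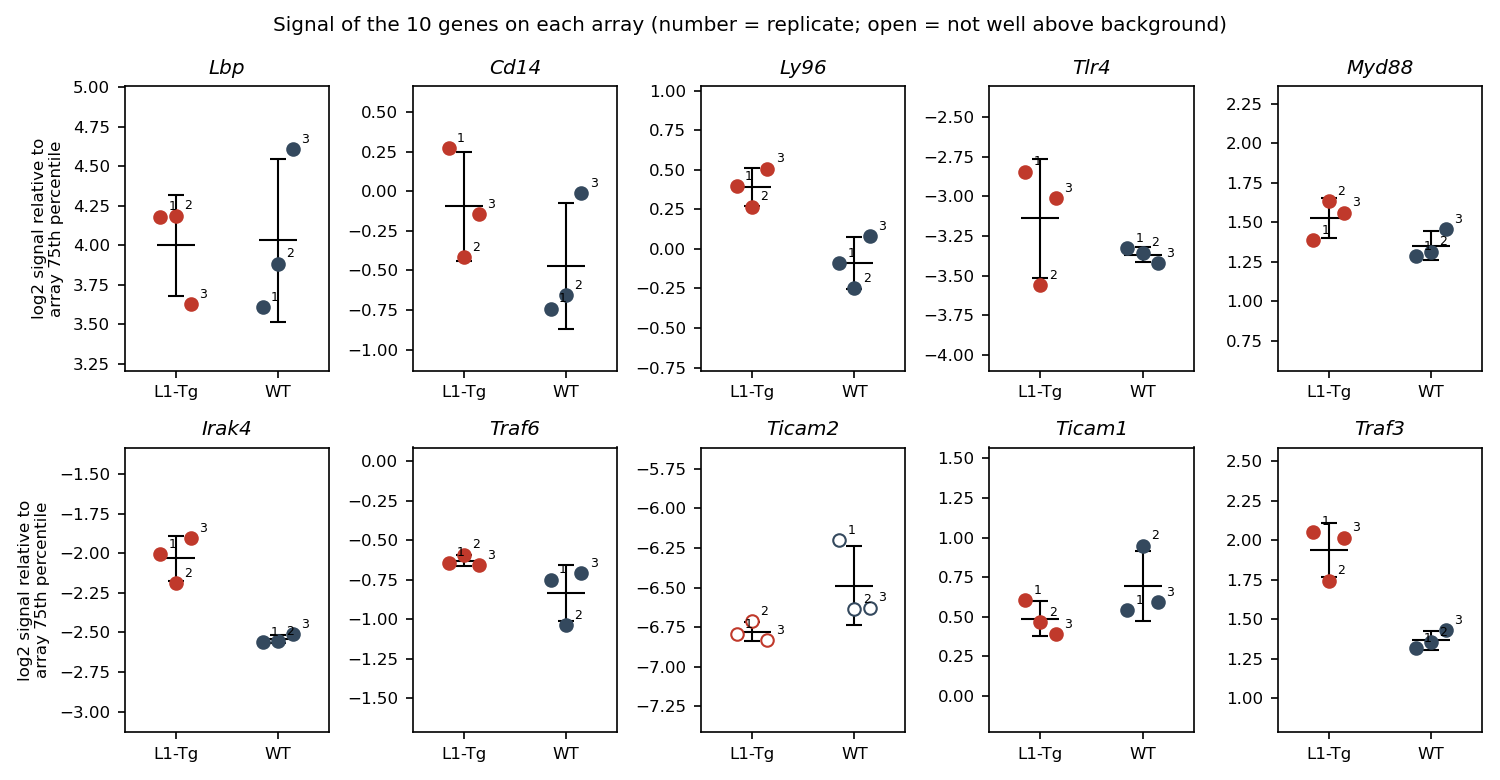
Log2 signal of each of the 10 genes relative to the 75th percentile of its array (y axis, every panel spans the same range) in L1-Tg and WT pools. Each point is 1 array numbered by its replicate, open points were not well above background, and bars give the mean ± SD of 3 arrays; the 3 L1-Tg points lie above the 3 WT points for Ly96, Irak4, Traf6 and Traf3.

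For the secreted carrier the 2 groups overlapped throughout. The log2 signal of Lbp was 4.18, 4.19 and 3.63 in L1-Tg replicates 1, 2 and 3 and 3.61, 3.88 and 4.61 in the WT replicates. The highest and the lowest pool were both WT, so the WT values enclosed those of all L1-Tg pools. The groups differed by -0.03 on the log2 scale, with a standard error of 0.29 and a limma adjusted p of 0.980, and the 95% interval ran from 0.60-fold to 1.58-fold. Its sign turned with the array scaling, to 0.08 with the array median, to 0.02 without scaling and to 0.02 with the matrix of the authors, and with 1 array left out it ran from -0.25, without WT replicate 1, to 0.25, without WT replicate 3, and was -0.13 without L1-Tg replicate 2.

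Cd14 encodes the co-receptor that carries LPS to MD-2 and has no signaling domain of its own. Its log2 signal was 0.27, -0.41 and -0.14 in the L1-Tg pools and -0.74, -0.65 and -0.01 in the WT pools. WT replicate 3 was again the highest of its group and exceeded all L1-Tg pools but replicate 1. The log2 difference of 0.37 (standard error 0.25, limma adjusted p = 0.660) came with a 95% interval from -0.24 to 0.99 that includes 0. It was 0.60 without WT replicate 3, 0.24 without WT replicate 1, 0.19 without L1-Tg replicate 1 and 0.53 without L1-Tg replicate 2.

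Ly96 was the member of the receptor complex itself whose groups were apart. MD-2 forms the pocket that holds the lipid part of LPS. The log2 signal was 0.40, 0.27 and 0.51 in the L1-Tg pools and -0.09, -0.25 and 0.08 in the WT pools, so that the lowest L1-Tg pool lay above the highest WT pool. The means were 0.39 ± 0.12 and -0.09 ± 0.16 (SD, n = 3 pools), a 1.39-fold difference (log2 difference 0.48, standard error 0.12) with a 95% interval of 1.13-fold to 1.71-fold. In limma its unadjusted p was 0.0072 and its adjusted p 0.422. Leaving out any 1 array gave 0.40 to 0.56, with 0.54 when L1-Tg replicate 2 was the one. In RNA of whole liver, more cells of a type and more RNA per cell cannot be told apart.

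Tlr4, the signaling receptor, was among the dim probes and was read by 2 spots per array. Its log2 signal was -2.84, -3.56 and -3.01 in the L1-Tg pools and -3.33, -3.35 and -3.42 in the WT pools. Of the L1-Tg pools 2 lay above all WT pools and replicate 2, the pool with the pancreas signal, lay below them. The SD was 0.38 in L1-Tg and 0.05 in WT livers (n = 3 pools), yet on WT replicate 1 the 2 spots themselves stood at -3.92 and -2.73. That gap between spots of one hybridization, 1.20 on the log2 scale, was larger than the log2 difference of 0.23 between the groups (standard error 0.19, limma adjusted p = 0.705). The difference was 0.44 without L1-Tg replicate 2, with a limma adjusted p of 0.496, and the groups then did not overlap. It was 0.08 without L1-Tg replicate 1 and 0.16 without L1-Tg replicate 3, with limma adjusted p-values of 0.922 and 0.941. After a normexp background correction it was -0.05.

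Myd88 encodes the adaptor of the plasma-membrane route and had the most closely read probe of the set, with 10 spots per array. Its log2 signal was 1.39, 1.64 and 1.56 in the L1-Tg pools and 1.29, 1.32 and 1.46 in the WT pools. L1-Tg replicate 1 fell within the WT range and kept the groups from separating. The spots of an array varied by a coefficient of variation of 3.45% to 6.86%, with an SD of 0.05 to 0.10 on the log2 scale. The SD between pools was 0.13 in L1-Tg and 0.09 in WT livers. L1-Tg livers were higher by 0.18 on the log2 scale, with a standard error of 0.11, a limma adjusted p of 0.642 and a 95% interval of 0.94-fold to 1.35-fold. The difference was 0.12 without L1-Tg replicate 2 and 0.28 with the array median as scale.

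**Figure D2:**
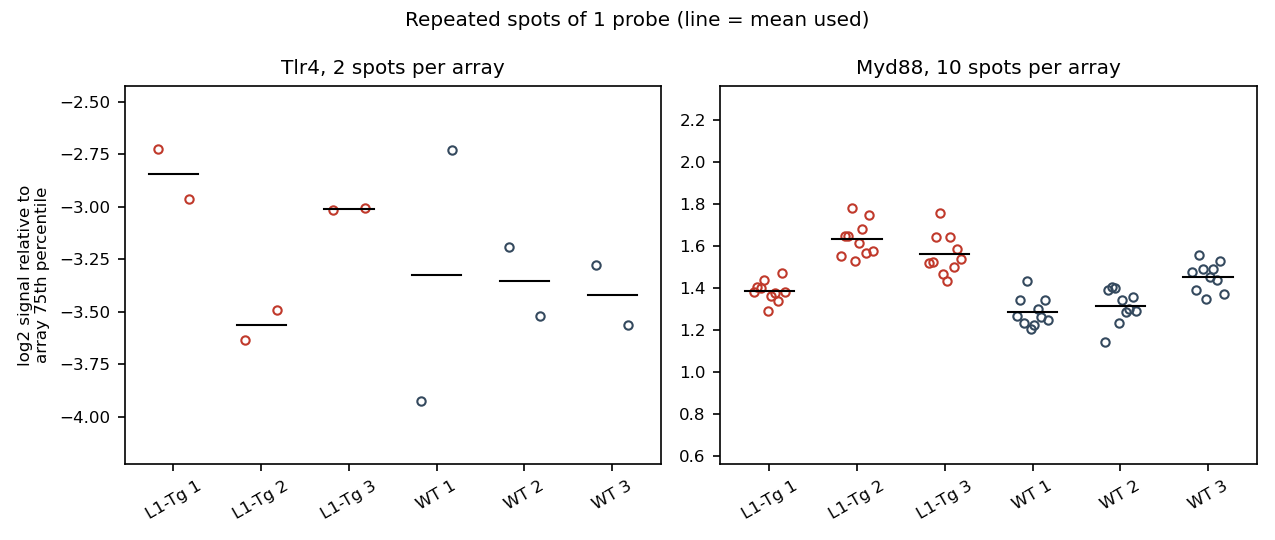
Log2 signal relative to the 75th percentile of the array (y axis) for every spot of the Tlr4 probe (2 per array) and the Myd88 probe (10 per array), with the array on the x axis and the mean used for it as a line. Both panels span the same range, and the 2 Tlr4 spots of WT replicate 1 lie at -3.92 and -2.73, farther apart than any 2 Myd88 spots of an array.

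Irak4, the kinase that MyD88 recruits first, was apart between the groups at both of its probes. At the brighter one the log2 signal was -2.00, -2.19 and -1.90 in the L1-Tg pools and -2.56, -2.56 and -2.51 in the WT pools. The log2 difference was 0.51 (standard error 0.10), or 1.42-fold with a 95% interval of 1.20-fold to 1.70-fold, and in limma the unadjusted p was 0.0023 and the adjusted p 0.306. At the second probe the L1-Tg pools stood at -2.59, -2.56 and -2.68 and the WT pools at -3.24, -3.09 and -2.72. There L1-Tg replicate 3 and WT replicate 3 were only narrowly separated, and the means were 0.40 apart with a standard error of 0.15, which gave a limma adjusted p of 0.542 over the 29451 probes tested. The 2 probes read the same transcript in the same pools and are not independent. The difference at the brighter probe was 0.59 without L1-Tg replicate 2 and 0.22 with normexp. The normexp setting adds an offset of 50 to the signals, which makes log2 differences of dim probes smaller. Before log2, the processed signals of this probe were 53.4 to 94.3.

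Traf6, the ubiquitin ligase downstream of IRAK4, did not overlap either, by a small margin. The log2 signal was -0.64, -0.59 and -0.66 in the L1-Tg pools and -0.75, -1.04 and -0.71 in the WT pools. The L1-Tg pools were close to each other (SD 0.03), and WT replicate 2 was the lowest. On the log2 scale L1-Tg livers were higher by 0.20 with a standard error of 0.12, the limma adjusted p was 0.627, and the 95% interval from -0.08 to 0.48 includes 0. It was 0.10 without WT replicate 2, 0.18 without L1-Tg replicate 2 and 0.31 with the array median as scale, and the groups overlapped after normexp, with 0.09, and without array scaling.

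The endosomal route has 3 members, 1 not well above background on any array, 1 with overlapping groups and 1 with groups apart. Ticam2, which encodes the bridging adaptor TRAM, gave log2 values of -6.79, -6.71 and -6.83 in the L1-Tg pools and -6.20, -6.64 and -6.63 in the WT pools, none of them well above background. The lowest signal of any probe well above background on an array stood at -4.60 to -3.98, so these values carry no level and no fold change is given. Ticam1, which encodes TRIF, stood at 0.61, 0.47 and 0.39 in the L1-Tg pools and at 0.54, 0.95 and 0.59 in the WT pools. The ranges overlapped, and the mean was lower by a log2 difference of -0.21 in L1-Tg livers, with a standard error of 0.14, a limma adjusted p of 0.658 and a 95% interval of 0.69-fold to 1.09-fold. The difference was -0.08 without WT replicate 2, the highest pool, -0.20 without L1-Tg replicate 2 and -0.10 with the array median as scale.

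Traf3, which links TRIF to the kinases of the interferon route and also restrains other NF-κB routes, had the largest difference and the smallest p of the 9 tested members. Its log2 signal was 2.05, 1.74 and 2.02 in the L1-Tg pools and 1.32, 1.36 and 1.43 in the WT pools. Every L1-Tg pool lay above every WT pool, and the nearest values, in L1-Tg replicate 2 and WT replicate 3, were 1.74 and 1.43. The means were 1.94 ± 0.17 and 1.37 ± 0.06 (SD, n = 3 pools), a 1.48-fold difference with a 95% interval of 1.23-fold to 1.80-fold. In limma the log2 difference of 0.57 (standard error 0.11) had an unadjusted p of 0.0021 and an adjusted p of 0.300. The difference was between 0.51 and 0.68 in all alternatives tried, 0.67 without L1-Tg replicate 2, and its adjusted p between 0.232 and 0.846.

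**Figure D3:**
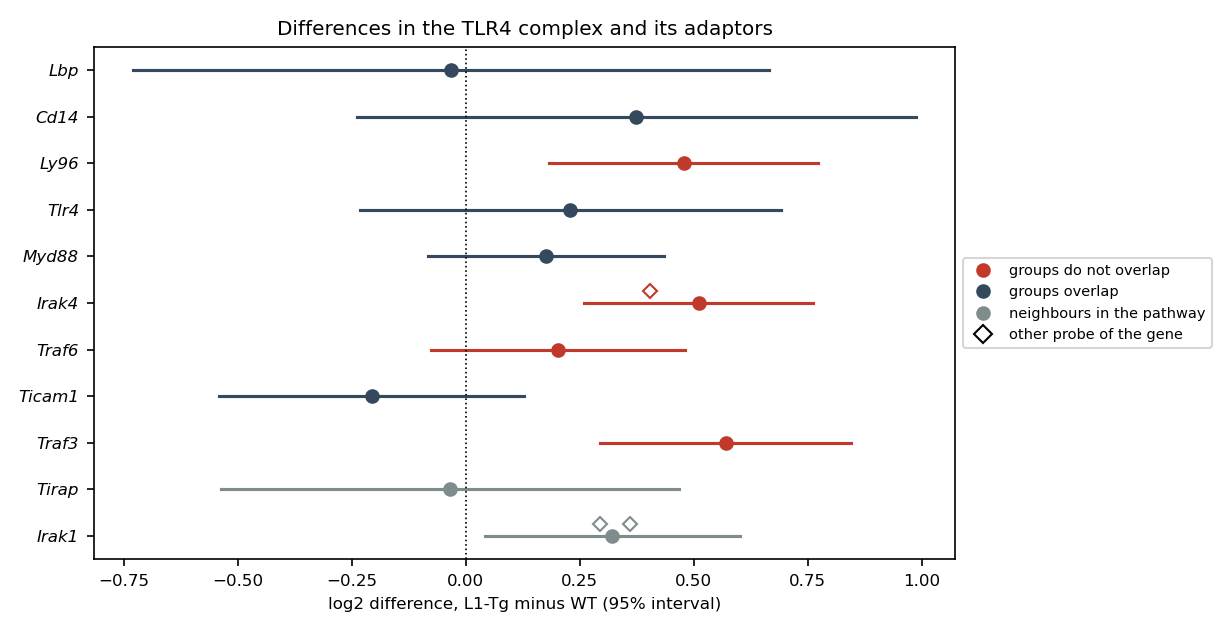
Log2 difference of L1-Tg minus WT (x axis) for the 9 tested members and for Tirap and Irak1, with the 95% interval of the limma fit. Filled points are the probe that stands for the gene and diamonds its other probes; the intervals of Ly96, Irak4, Traf3 and Irak1 lie above 0, and that of Lbp is the widest, from -0.73 to 0.66.

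The starts of Irak4, Traf3 and Traf6, which were apart between the groups, are shown with that of Myd88, whose groups overlapped, to show what the DNA in front of them holds. A RefSeq table of promoters (GRCm38.p6) had an entry for 5 of the 10 genes and none for Ly96, the other gene whose groups were apart, and the 250 bases before the start are printed 5′ to 3′ along the gene's own strand for Irak4 (chr15:94543410-94543659, plus strand), Traf3 (chr12:111166120-111166369, plus), Traf6 (chr2:101678170-101678419, plus) and Myd88 (chr9:119340019-119340268, minus). Capitals mark matches on either strand to the GC box GGGCGG, the PU box GAGGAA, the interferon-stimulated response element core GAAANNGAAA, the AP-1 site TGANTCA or the NF-κB consensus.
Irak4: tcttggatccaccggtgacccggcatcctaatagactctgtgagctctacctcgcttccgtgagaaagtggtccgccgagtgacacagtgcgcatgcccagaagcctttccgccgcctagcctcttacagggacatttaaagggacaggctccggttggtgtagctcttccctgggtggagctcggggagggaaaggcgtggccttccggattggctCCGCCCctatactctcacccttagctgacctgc
Traf3: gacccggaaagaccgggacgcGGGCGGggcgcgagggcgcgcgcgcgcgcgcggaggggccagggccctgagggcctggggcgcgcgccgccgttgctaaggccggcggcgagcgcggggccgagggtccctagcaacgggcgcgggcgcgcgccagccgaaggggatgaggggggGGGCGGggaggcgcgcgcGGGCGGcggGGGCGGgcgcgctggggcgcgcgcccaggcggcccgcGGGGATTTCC
Traf6: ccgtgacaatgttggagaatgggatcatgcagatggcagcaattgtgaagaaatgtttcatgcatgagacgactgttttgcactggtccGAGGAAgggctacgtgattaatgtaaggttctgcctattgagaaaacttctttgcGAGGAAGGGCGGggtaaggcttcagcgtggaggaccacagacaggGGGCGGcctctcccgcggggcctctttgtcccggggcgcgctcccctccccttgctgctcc
Myd88: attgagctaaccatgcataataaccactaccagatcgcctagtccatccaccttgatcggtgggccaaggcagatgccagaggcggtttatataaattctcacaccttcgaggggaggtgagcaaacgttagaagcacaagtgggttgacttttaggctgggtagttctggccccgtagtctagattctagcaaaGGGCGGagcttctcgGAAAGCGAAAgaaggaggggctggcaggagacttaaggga
A GC box stands in all 4, once in Irak4 and Myd88, 2 times in Traf6 and 4 times in Traf3, and in 32.7% of 32841 promoters of this length. Traf3, with a GC content of 85.2%, has 1 match to the NF-κB consensus, which 7.25% of promoters hold. Traf6 has 2 PU boxes, which 23.3% of promoters hold, and the second abuts a GC box without overlap. Myd88 has the response element core, which 2.98% of promoters hold, and none of the 4 windows has the AP-1 site, which 6.75% hold. Ticam1, the fifth entry, has 3 GC boxes and 1 PU box. A match describes letters only and does not show that a factor binds there.

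For 4 of the 9 tested members, Ly96, Irak4, Traf6 and Traf3, the 2 groups of pools were fully apart, with L1-Tg livers higher in each. Among all genes tested the share was 15.9%, with 7.2% higher and 8.69% lower. With 3 pools against 3, an exact permutation test of a single gene cannot give a p under 0.10. The count was 2, Irak4 and Traf3, without array scaling, where the share of all genes was 8.32%. After normexp it was 3, Ly96, Irak4 and Traf3, against 16.1% of all genes. With 1 array left out it was between 4 and 6, against 21.3% to 31.9% of all genes, a share that is larger with fewer arrays. The 6 without L1-Tg replicate 1 included Ticam1, which was lower in L1-Tg livers. The difference index of the study divides the difference of the group means of linear signals by the sum of their SDs and takes a modulus above 0.7 as changed, with no test. It passed for 6 of the 10 members, 5 higher and 1 lower, against 30.3% of 37041 genes with 8.61% higher and 21.7% lower. The higher ones were Irak4 with 2.70, Traf3 with 2.33, Ly96 with 1.70, Traf6 with 0.98 and Myd88 with 0.80, and the lower one was Ticam2 with -0.88, which no array measured above background. The 37041 genes also include those too dim to be tested. With only genes well above background on all 6 arrays, the index passed 5 members, those higher, against 26.4% of genes.

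The other genes of the pathway were taken from lists by function, written with earlier results of these data known, and no gene of any of these lists passed the adjusted threshold in limma. On the MyD88 route 24 of 25 listed genes were tested, 18 were higher and 6 lower, the median log2 difference was 0.06 and 4 had an unadjusted p under 0.05. Of all genes tested 42.8% were higher and 8.88% had an unadjusted p under 0.05. Irak1, the kinase that IRAK4 phosphorylates, stood at 1.80, 1.95 and 2.07 in the L1-Tg pools and 1.76, 1.53 and 1.56 in the WT pools. Its groups did not overlap at any of its 3 probes, and the gene differed by 0.32 with a standard error of 0.12 and a limma adjusted p of 0.530. Tirap, which brings MyD88 to the membrane, differed by -0.03 (limma adjusted p = 0.968). Tab1, a partner of the kinase TAK1, differed by -0.26 and Map2k6, a kinase upstream of p38, by -0.57, with limma adjusted p-values of 0.543 and 0.546. On the TRIF route all 13 genes were tested, 8 were higher, the median was 0.05 and 1 had an unadjusted p under 0.05. This was the interferon regulatory factor Irf7, at 3.50, 3.02 and 3.68 in the L1-Tg pools and 0.80, 1.22 and 3.19 in the WT pools. WT replicate 3 lay within the L1-Tg range, and Irf7 differed by 1.66 with a standard error of 0.61 and a limma adjusted p of 0.536. On this route 3 genes had groups that were apart, 1 higher and 2 lower, a share of 23.1% against 15.9% of all genes tested. These were Tbk1, the kinase that TRAF3 engages, with 0.28, Tradd, an adaptor of cell-death receptors, with -0.17, and Irf3, the interferon regulatory factor that TBK1 phosphorylates, with -0.13.

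Upstream of the receptor, 16 of 18 genes that bind or clear LPS and other TLR4 ligands were tested, with 10 higher and a median of 0.08. An unadjusted p under 0.05 was reached by 2 of them, against 8.88% of all genes tested. These were Cd36, a scavenger receptor that works with TLRs, and Scarb1, a lipoprotein receptor that also takes up LPS, with log2 differences of 1.48 and -0.38. The third smallest p belonged to Itgb2, the shared chain of leukocyte integrins, with 0.38. All 17 genes of receptor folding and trafficking were tested, 10 were higher, the median was 0.08 and 0 had an unadjusted p under 0.05 in limma. The smallest p there were those of Unc93b1, the chaperone of endosomal TLRs, with 0.27, Pik3cd with 0.40 and Cltc, the clathrin heavy chain, with 0.14. Among 26 negative regulators 23 were tested and 17 were higher, with a median of 0.08. An unadjusted p under 0.05 was reached by 3 of them, against 8.88% of all genes tested. These were Ly86, the partner of RP105 that is related to MD-2, with 0.57, Cyld, a deubiquitinase, with -0.28, and Inpp5d, the phosphatase SHIP1, with 0.40. Of the 11 other Toll-like receptors on the array 9 were tested and 8 were higher, with a median of 0.23. There was 1 non-overlapping gene and 0 had an unadjusted p under 0.05, against 15.9% and 8.88% of all genes tested. The log2 differences were 2.001 for Tlr1, 1.01 for Tlr2, 0.90 for Tlr3, 0.54 for Tlr5, 0.23 for Tlr13, 0.12 for Tlr6, 0.10 for Tlr12, 0.00 for Tlr9 and -0.33 for Tlr7. Tlr1 was well above background in 1 and Tlr3 in 2 of 3 WT pools, so both passed the filter on dim probes through the L1-Tg group alone, and their differences rest on WT values partly at background. Tlr3 was the gene whose groups did not overlap. Over the 7 receptors well above background on all 6 arrays, 6 were higher, with a median of 0.12 and 0 non-overlapping. Tlr8 and Tlr11 were not tested.

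Genes known as outputs of either route were read from 2 further lists, also written with earlier results of these data known. Of 12 tested outputs of the MyD88 route 2 had an unadjusted p under 0.05, against 8.88% of all genes tested. Also 2 were non-overlapping, a share of 16.7% against 15.9% of all genes tested. Of the 12, 10 were higher, with a median of 0.28. The median was 0.11 without WT replicate 1, 0.15 without L1-Tg replicate 1, 0.47 without L1-Tg replicate 3 and 0.55 without WT replicate 3, and it was 0.19 over the 10 genes well above background on all 6 arrays. Lcn2, a siderophore-binding protein, differed by 1.79, Ccl2, a monocyte chemokine, by 1.21, and Ccl4, which was well above background in 2 of 3 WT pools, by 1.52. The cytokine genes Tnf, Il6 and Il10 were too dim to be tested, as were Cxcl2 and Ptgs2. Of 11 tested outputs of the TRIF route 10 were higher, with a median of 1.47. Of the 11, 7 had an unadjusted p under 0.05, against 8.88% of all genes tested. Also 7 were non-overlapping, a share of 63.6% against 15.9% of all genes tested. The study had already reported genes of the responses to virus and interferon-beta as mostly higher on these same arrays. These shares are therefore not independent of that report. Acod1 was well above background in 2 of 3 WT pools and passed the filter through the L1-Tg group alone. Over the 10 genes well above background on all 6 arrays 9 were higher, with a median of 1.52 and 7 non-overlapping. Rsad2, which encodes an antiviral enzyme, stood at 2.01, 2.52 and 2.31 in the L1-Tg pools and -0.20, 0.47 and 0.86 in the WT pools. Its log2 difference was 1.90, that of Cmpk2 1.56 and that of Ifit2 1.47, each with a limma adjusted p of 0.180. These genes are known to respond to interferon whichever receptor led to it, and Ifnb1 itself was well above background on no array. Of 19 acute-phase genes, which hepatocytes make in inflammation, 13 were higher, with a median of 0.11, 0 at an unadjusted p under 0.05 and 0 non-overlapping. That median was 0.00091 without L1-Tg replicate 2, the pool with the pancreas signal, 0.18 without L1-Tg replicate 1, 0.24 after quantile normalization and 0.22 with the array median as scale. Steap4 differed by 0.74, Orm2 by 0.48 and Orm1 by 0.41, each with a limma adjusted p of at least 0.560.

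The small medians of the other lists also moved by over 1.5 times with single arrays. With 1 array left out the MyD88 route ran from 0.02, without WT replicate 1, to 0.09, without WT replicate 3, and the TRIF route from 0.03, without WT replicate 2, to 0.08, without L1-Tg replicate 3. Ligand handling ran from 0.0017, without WT replicate 1, to 0.17, without WT replicate 3, and the negative regulators from 0.03, without WT replicate 2, to 0.16, without WT replicate 3. Receptor folding and trafficking ran from -0.0061, without L1-Tg replicate 1, to 0.11, without WT replicate 1, and the other Toll-like receptors from 0.27, without L1-Tg replicate 1, to 0.48, without WT replicate 2. Without L1-Tg replicate 2 the medians were 0.03 for the TRIF route, 0.01 for ligand handling and 0.12 for the negative regulators. The TRIF outputs had a median between 1.28 and 1.68 with any 1 array left out. With the array median as scale, which moved the median of all genes from -0.03 to 0.08, the MyD88 and TRIF routes had medians of 0.17 and 0.16.

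**Figure D4:**
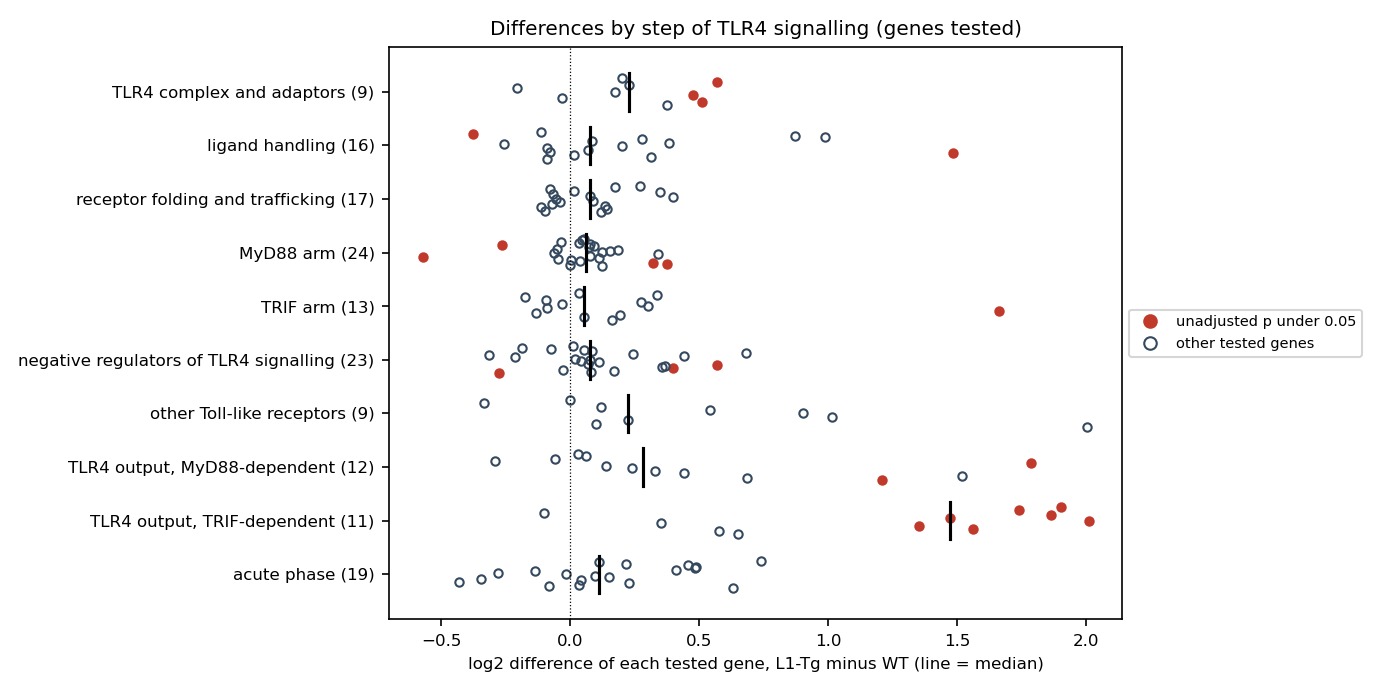
Log2 difference of L1-Tg minus WT (x axis) of every tested gene, by step of TLR4 signalling, with the number of tested genes in parentheses and the median as a line. Filled points have an unadjusted p under 0.05 in limma and none passed after adjustment; the medians lie between 0.05 and 0.28 in all lists but the TRIF-dependent outputs, with 1.47.

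Markers of Kupffer cells, macrophages and monocytes were read on the same arrays. Of 12 Kupffer cell and macrophage markers 11 were on the array and tested. In L1-Tg livers 10 were higher, against 42.8% of all genes tested, with a median of 0.32. Of the 11, 0 were non-overlapping and 0 had an unadjusted p under 0.05 in limma, against 15.9% and 8.88% of all genes tested. The summed linear signal of these markers was 133%, 114% and 125% of the WT mean in the L1-Tg pools. It was 71.8%, 96.0% and 132% in the WT pools, so WT replicate 1 was lowest and WT replicate 3 reached the L1-Tg range. Adgre1, which encodes F4/80, stood at 1.82, 1.64 and 1.97 against 1.18, 1.28 and 2.08, and Clec4f at 4.51, 4.34 and 4.40 against 3.67, 3.84 and 4.49. The order of the WT pools in the summed signal, with replicate 3 highest and replicate 1 lowest, was also that of Lbp, Cd14, Myd88 and Traf3. It was that of Irak4 too, by a small margin at its brighter probe. Ly96, Tlr4, Traf6 and Ticam1 had other orders, and the share of all genes tested with this order was not counted. In the L1-Tg pools the summed signal was highest in replicate 1 and lowest in replicate 2, as were Cd14 and Traf3. Lbp, Myd88 and Irak4 had other orders there. Of 6 monocyte markers 5 were on the array and all were higher, with a median of 0.64. Of the 5, 3 had an unadjusted p under 0.05, against 8.88% of all genes tested. F13a1 and Ccr2 were well above background in 2 of 3 WT pools and passed the filter through the L1-Tg group, and without them 3 of 3 markers were higher, with 2 at an unadjusted p under 0.05. Their summed signal, of which Plac8 made up 84.3% to 89.1%, was 155%, 139% and 234% in the L1-Tg pools and 72.9%, 116% and 111% in the WT pools, without overlap. The part of these cells in the differences of Ly96, Irak4, Traf6 and Traf3 was not tested.

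Alb, a defining hepatocyte gene, stood at 10.52 to 10.80 in the L1-Tg pools and 10.65 to 10.81 in the WT pools, and the 10 hepatocyte markers summed to 86.1% to 104% of the WT mean in L1-Tg and 93.1% to 105% in WT livers. The sums were 76.1% to 83.0% against 90.9% to 112% for neutrophil, 53.7% to 64.1% against 60.02% to 142% for lymphocyte, 102% to 104% against 96.5% to 106% for sinusoidal endothelium, 83.9% to 104% against 84.3% to 114% for stellate cell and 98.0% to 154% against 83.1% to 118% for cholangiocyte markers. The neutrophil sums did not overlap and were lower in L1-Tg livers, but Csf3r alone made up 74.6% to 91.2% of them, and 3 of the 5 tested neutrophil markers were higher, with a median log2 difference of 0.20. Of these 5, Mpo and Retnlg were not well above background on all arrays, and 1 of the other 3 was higher, with a median of -0.24. Cd4 made up 84.3% to 92.7% of the lymphocyte sums, which were mostly lower, whereas 6 of the 9 tested lymphocyte markers were higher, with a median of 0.36, and 3 of the 6 bright on every array were higher, with a median of 0.24. Cxcr2, a defining neutrophil receptor, was well above background on no array. The log2 signal was 7.31 to 7.67 for Csf3r and 6.23 to 7.76 for Cd4, and which cells these signals came from was not tested.

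**Figure D5:**
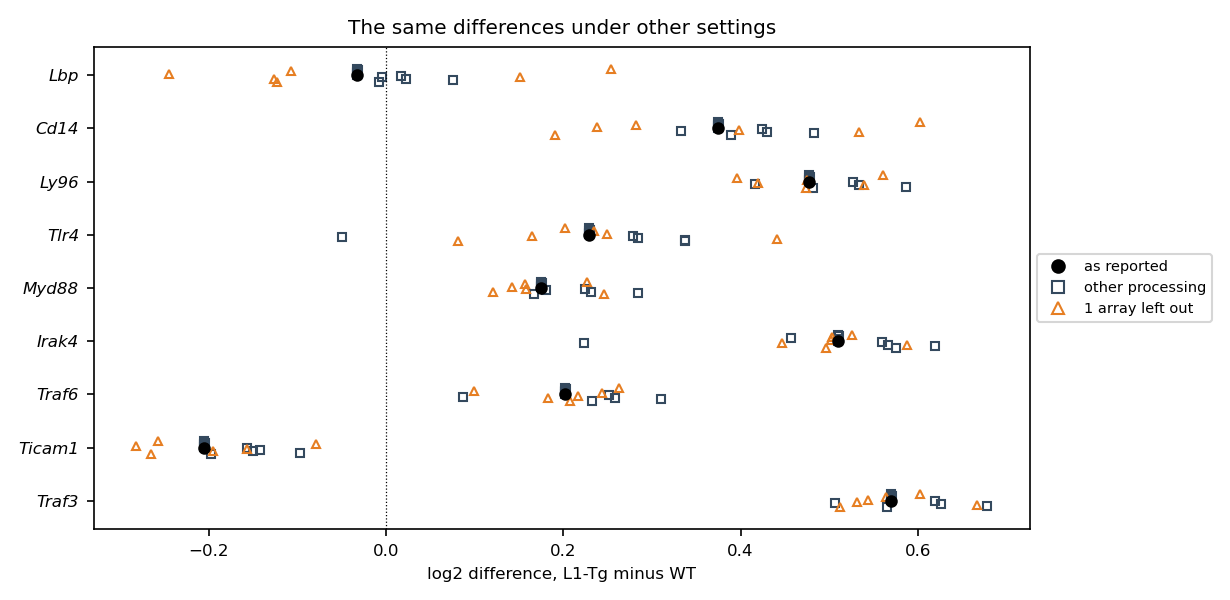
Log2 difference of L1-Tg minus WT (x axis) of the 9 tested members as reported, under other processing settings and with 1 array left out. Ly96, Irak4 and Traf3 stay above 0.2 in every setting, while Lbp lies on both sides of 0 and Tlr4 is below 0 after the normexp correction.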

How the data were processed

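Liver RNA of 3 L1-Tg and 3 WT pools was hybridized to 1-color arrays of 62976 spots, of which 3671 were controls. The authors ran version 10.10.1.1 of Agilent Feature Extraction. The processed signal they deposited is a linear intensity from which background and spatial trends were taken out on each array separately, without scaling from one array to another. Spots that did not exceed background hold a surrogate value. The deposited marks (other values, 0 or 1) flag spots that are well above background, saturated (0 spots) or non-uniform. A deposited matrix of intensities equals the processed signal multiplied by 1 factor per array of 2.46 to 2.98, whose basis is not given in the sources used here.

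Here, non-uniform spots were left out, log2 was taken, each array's 75th percentile (an intensity of 297 to 378) was subtracted and spots of a probe were averaged. Of 28685 RefSeq-type probe names 27235 were matched to a symbol. A gene was read by its brightest probe and tested if every array of either group had it well above background. The moderated two-sided test of limma 3.58.1 (R 4.3.3), with Benjamini-Hochberg adjustment over all genes at 0.05, and the difference index of the methods (0.7) were used, with the R packages data.table (1.17.8) and jsonlite (2.0.0). The scripts were tested on simulated data. Precision is limited by the number of arrays.

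Groups follow the genotype labels, and replicate numbers are not said to pair pools. The members and all lists were chosen with earlier results of these data known. The text names every member, Npc1l1, Tirap, Irak1, the other Toll-like receptors and, in each other pathway list, genes past the adjusted threshold or else the 3 with the smallest p. It names Alb, Adgre1, Clec4f and any defining marker that no array measured. Genes named as too dim, Irf3, Acod1, Cela2a, the brightest genes of cell marker sums and the markers that were partly dim were added after their values were seen. Alternatives were quantile, median or no scaling, normexp (offset 50, on the deposited median signals), the deposited matrix, dim probes kept, only probes bright on all 6 arrays, averaged probes, non-uniform spots kept, a two-sample test without moderated variances, a replicate block and each array left out.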

Additional observations from a re-analysis of the deposited data

How the results depend on the processing

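Under the alternatives tried, 0 members passed the adjusted threshold in limma, and also 0 with 1 array left out, where the smallest adjusted p of a member was 0.230, without WT replicate 3. The median log2 difference of the members lay between 0.18 and 0.44 and was 0.44 without L1-Tg replicate 2, the pool with the pancreas signal, against 0.21 to 0.44 over all arrays left out in turn. The number of members whose groups do not overlap was 2 without array scaling, 3 after normexp and 4 to 6 with 1 array left out. The shares of all genes were 8.32%, 16.1% and 21.3% to 31.9%. The 6 without L1-Tg replicate 1 were 5 higher ones and Ticam1, which was lower in L1-Tg livers. The index passed 5 to 7 members with 1 array left out, against 33.8% to 40.9% of all genes, and 4 without scaling or after normexp, against 16.3% and 23.2%. Of 144 values of single members 6 changed sign. Lbp was 0.076 with the array median, 0.023 without scaling and 0.017 with the deposited matrix, and -0.25 to 0.25 with 1 array left out, above 0 without L1-Tg replicate 3 (0.15) or WT replicate 3 (0.25). Tlr4 was -0.0501 after normexp, and the cause was not tested.

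With the replicate number as a replicate block 0 members passed, the median stayed at 0.23 and Traf3 had the smallest adjusted p, 0.454. Deviations of same-numbered pools from their group means correlated with r of -0.16, 0.11 and 0.02, so the numbers were not taken to pair the pools. Over all genes 29 passed, against 11 with the block, 10 without a filter on dim probes, 0 without moderated variances and 15 to 36 with 1 array left out. Scaling moved the median of all genes by over 0.1, from -0.03 to 0.08 with the array median. Dim probes limit what can be read of Ticam2, Tlr4 and Irak4.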
